A study of Homo sapiens with 4 samples.

Results

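The 40 genes described here encode subunits of the respiratory complexes II, III, IV and V and the electron carrier cytochrome c. They were taken by gene name from a list, and all 40 names matched 1 row each among the 60617 genes in the tables. The list holds 4 genes of complex II, 9 of complex III, cytochrome c (CYCS), 11 of complex IV and 15 of complex V, all encoded in the nucleus. The poly-A RNA came from spheres of U87MG, a long-established line from a human glioblastoma, kept for 14 days in DMEM/F12 with EGF and bFGF (20 ng/ml each), N2 and 2% B27. Spheres given abemaciclib, a drug that blocks the cell cycle kinases CDK4 and CDK6, gave 2 libraries, and untreated spheres in the same medium gave the other two. The drug's dose, and any vehicle given to the untreated spheres, are not given in the sources used here. Nothing in the labels says that the libraries of a group came from separate cultures, so the p-values cover only how far libraries of a group differ, and that may be technical.

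The respiratory chain hands electrons to oxygen through carriers in the inner mitochondrial membrane. Complex II, succinate dehydrogenase, passes electrons from the tricarboxylic acid cycle to ubiquinone. Complex III, the cytochrome bc1 complex, passes them on to cytochrome c. Complex IV, cytochrome c oxidase, gives them to oxygen. Complex V, the ATP synthase, uses the proton gradient built by the chain to make ATP. Complexes III, IV and V also hold subunits encoded by mitochondrial DNA, while complex II has none. Glioblastoma cells are known for heavy use of glycolysis alongside respiration.

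Libraries held 23684260 (replicate 1) and 33226884 (replicate 2) expected counts from abemaciclib spheres, and 27485206 and 33418075 from untreated spheres. Levels are CPM, counts relative to the library total after scaling by the TMM method, unless said otherwise. Mitochondrially encoded genes took 11.8% and 11.7% of the counts of the abemaciclib libraries, against 4.27% and 4.66% of the untreated ones. With these genes left out of totals and scaling, 34 members were higher and 2 lower, and the median log2 fold changes were 0.45 (complex II), 0.59 (III), 0.46 (IV) and 0.49 (V). Among all genes tested, 38.0% were called higher and 39.3% lower, and the marker counts below are to be read beside these shares. Of 7 markers of glioma lines or glia, 4 were called lower and 1 higher. VIM stood at 4330 and 4407 CPM with the drug and 6250 and 5679 CPM untreated, CD44 at 490.3 and 469.4 CPM against 1352 and 1331 CPM (log2 fold change -1.48), and NES (-0.50) and OLIG2 (-1.03) were also lower. The stem cell factor SOX2 was higher (2.89), at no more than 0.457 CPM, and the glial genes GFAP and S100B, at or under 0.295 CPM in every library, were not tested. The list summed to 4893 and 4948 CPM against 7701 and 7117 CPM. Of 6 markers of blood, endothelial and epithelial cells, 4 were called higher and 2 lower. Their summed level was 1117 and 1089 CPM in the abemaciclib libraries and 544.6 and 533.8 CPM in the untreated ones. Without CD68, which also marks lysosomes, it was 17.1 and 16.4 CPM against 32.1 and 31.3 CPM. The leukocyte marker PTPRC was higher (log2 fold change 2.21), at 0.748 and 0.413 CPM against 0.148 and 0.0917 CPM, as were VWF (0.40) and EPCAM (1.17). The endothelial marker PECAM1, at 1.37 and 0.915 CPM against 9.78 and 9.78 CPM, and the epithelial KRT8 were lower (-3.14 and -1.39). The part of these marker shifts in the results was not tested. In RNA of whole cultures, fewer cells of a type and less RNA per cell cannot be told apart.

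Transcripts of these complexes were higher after abemaciclib almost throughout. Of the 39 members that passed the filter on low counts, 34 were higher and 2 lower at an adjusted p under 0.05 in edgeR's quasi-likelihood test, and 3 did not pass. Among all 17207 genes tested, 38.0% were called higher and 39.3% lower, so 77.3% were called in either direction. The median log2 fold change of the 39 members was 0.49, against -0.01 for all genes tested. The members' groups did not overlap in 37 of 39 cases, against 87.9% of all genes. Together the 40 genes summed to 5151 and 5185 CPM in abemaciclib libraries and 3634 and 3749 CPM in untreated ones, a 1.40-fold higher level. Most shifts were moderate: 16 members were at least 1.5-fold higher, 3 of them at least 2-fold. The highest rises were those of UQCRQ and UQCR11, small subunits of complex III. The members called lower were ATP5MC2, a gene for the c subunit of the ATP synthase, and SDHA, the flavoprotein of complex II. COX4I2, the isoform of complex IV subunit 4 known from lung and from hypoxia, was the member that failed the filter, with 0 counts in all 4 libraries.

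**Figure D1:**
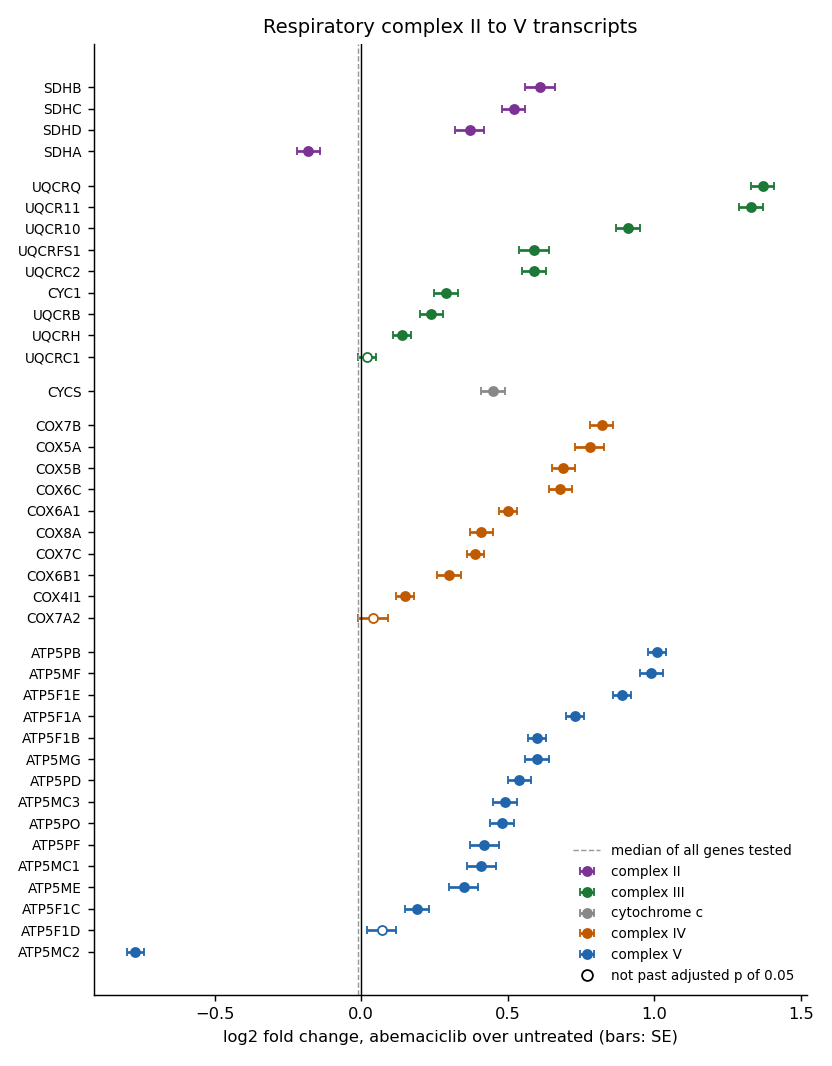
Log2 fold change (abemaciclib over untreated) of the 39 tested members, ordered by size within each complex, with standard errors from edgeR as bars and open dots for members that did not pass. Nearly all dots lie right of the dashed median of all genes tested (-0.01), with ATP5MC2 at -0.77 and SDHA at -0.18 as the exceptions called lower.

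The promoters of the members at the ends of this range are shown because so many members moved in one direction. RefSeq start sites (GRCh38.p14) were found for 31 of the 40 members. The 250 bases before each start were searched on both strands for 3 motifs: GCGCA, then any base, then GCGC (the site of NRF1, a factor known for respiratory genes), CCGGAAG (the ETS family, which includes GABPA) and CACGTG (the E-box of MYC and TFE factors). Capitals mark the matches, which do not overlap one another here. For ATP5MC2 the first of the starts in the table is shown.
UQCRQ, chr5:132866392-132866641, plus strand: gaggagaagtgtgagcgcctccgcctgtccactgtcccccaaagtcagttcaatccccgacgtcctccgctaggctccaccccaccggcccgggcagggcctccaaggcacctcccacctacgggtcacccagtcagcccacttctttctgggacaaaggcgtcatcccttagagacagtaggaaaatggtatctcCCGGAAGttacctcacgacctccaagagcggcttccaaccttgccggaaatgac
UQCR11, chr19:1605463-1605712, minus strand: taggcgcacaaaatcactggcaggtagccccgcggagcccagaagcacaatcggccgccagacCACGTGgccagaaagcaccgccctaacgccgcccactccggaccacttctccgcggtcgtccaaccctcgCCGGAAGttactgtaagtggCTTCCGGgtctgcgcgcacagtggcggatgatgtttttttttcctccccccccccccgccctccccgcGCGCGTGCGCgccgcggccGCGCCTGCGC
SDHA, chr5:218070-218319, plus strand: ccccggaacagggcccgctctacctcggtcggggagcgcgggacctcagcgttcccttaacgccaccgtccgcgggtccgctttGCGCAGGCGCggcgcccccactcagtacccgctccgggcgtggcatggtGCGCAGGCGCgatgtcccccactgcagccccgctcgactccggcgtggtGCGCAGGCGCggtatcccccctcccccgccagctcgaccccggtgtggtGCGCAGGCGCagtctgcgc
ATP5MC2, chr12:53676084-53676333, minus strand: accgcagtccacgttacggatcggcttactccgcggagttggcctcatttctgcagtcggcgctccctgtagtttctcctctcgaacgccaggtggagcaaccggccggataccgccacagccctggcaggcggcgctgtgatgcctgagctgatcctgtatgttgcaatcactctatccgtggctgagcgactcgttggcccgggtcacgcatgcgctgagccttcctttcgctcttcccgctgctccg
UQCR11 held matches to all 3 motifs, UQCRQ an ETS match, SDHA 4 NRF1 matches, and ATP5MC2 none at any of its listed starts. The NRF1 motif was in 8 of 31 members (25.8%) and in 6.2% of 27305 genes in the table. The ETS motif was in 12 of 31 (38.7%), against 10.2% of all. The E-box was in 3 of 31 (9.7%), against 7.7%. The 27305 genes were not limited to those that passed the filter on low counts, as all 31 members did. Shares among detected genes alone were not computed. Of the 8 members with an NRF1 match, 6 were higher, 1 was lower and 1 did not pass. Their median log2 fold change was 0.36. Of the 23 without one, 21 were higher, 1 was lower and 1 did not pass, and their median was 0.54. All 12 members with an ETS match were higher (median 0.52), as were 15 of the 19 without (median 0.45). The 3 members with an E-box were higher too (median 1.01), as were 24 of the 28 without (median 0.46). These matches are descriptions of sequence only, and no test was made of the medians.

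In complex II, 3 of 4 subunits were higher and 1 was lower. Its summed level was 357.9 and 358.9 CPM in the abemaciclib libraries, against 295.9 and 301.9 CPM in the untreated ones. SDHB, the iron-sulfur subunit, had 71.5 and 80.3 CPM with the drug and 50.7 and 49.6 CPM untreated (log2 fold change 0.61 ± 0.05, SE; edgeR adjusted p = 1.41e-11). SDHC, a membrane anchor, had 125 and 124 CPM against 86.1 and 86.7 CPM (0.52 ± 0.04). SDHD, the other anchor, had 47.7 and 44.2 CPM against 35.7 and 35.1 CPM (0.37 ± 0.05). In all 3 genes each abemaciclib library exceeded each untreated library. SDHA, which carries the flavin and oxidizes succinate, lies at chr5:218241-256700 (plus strand, GRCh38, GENCODE 29). It had 114 and 111 CPM in abemaciclib libraries, against 123 and 130.4 CPM in untreated ones. Its fall was small (-0.18 ± 0.04, edgeR adjusted p = 5.64e-05), and the groups did not overlap, as in 87.9% of all genes tested. SDHA has near-identical pseudogenes that took 13.9% of the counts of gene and pseudogenes together. Summed with them, it fell by 0.29 on the log2 scale (edgeR adjusted p = 6.98e-09). SDHD overlaps TIMM8B on the opposite strand, whose counts came to 25.9% of its own.

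Complex III held the widest range of rises. Of its 9 subunits 8 were higher and 1 did not pass, with a median log2 fold change of 0.59, and the sum was 1116 and 1129 CPM with the drug against 751.4 and 770.0 CPM untreated. In the same annotation UQCRQ lies at chr5:132866560-132868031 (plus strand) and UQCR11 at chr19:1597172-1605490 (minus strand). UQCRQ had 166 and 165 CPM in abemaciclib libraries and 65.9 and 62.6 CPM in untreated ones (log2 fold change 1.37 ± 0.04, edgeR adjusted p = 8.56e-25). UQCR11 had 137 and 149 CPM against 57.5 and 56.7 CPM (1.33 ± 0.04). UQCR10 had 106 and 106 CPM against 55.5 and 57.4 CPM (0.91 ± 0.04). The libraries of a group lay close together in these 3 genes and the groups were far apart. Other small subunits rose much less: UQCRB, at 151.7 and 150.3 CPM against 123 and 132 CPM, had a log2 fold change of 0.24 ± 0.04. UQCRH, the hinge protein that lies by cytochrome c1, had 127 and 125 CPM against 113 and 116 CPM (0.14 ± 0.03). UQCR11 shares its strand with the overlapping AC005943.1, to which the authors' counting gave 24.5% as many counts, and its own counts were not whole in any library, so its level is uncertain. AC005943.1 itself had a log2 fold change of 0.17.

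The larger subunits of complex III also differed from one another. UQCRFS1, the Rieske iron-sulfur protein, had 81.7 and 78.4 CPM in abemaciclib libraries against 50.6 and 55.0 CPM in untreated ones (log2 fold change 0.59 ± 0.05). CYC1, cytochrome c1, had 76.4 and 78.6 CPM against 61.6 and 65.3 CPM (0.29 ± 0.04). The core proteins form a pair in the complex, yet only UQCRC2 passed the test, at 138 and 142 CPM against 92.4 and 93.0 CPM (0.59 ± 0.04, edgeR adjusted p = 7.26e-16). UQCRC1 had 132 and 136 CPM against 131.5 and 132 CPM, and its groups overlapped (0.02 ± 0.03, edgeR adjusted p = 0.566). UQCRC1 passed in edgeR with total-count scaling (0.08, adjusted p = 0.0448) and with a correction for GC content and length (0.16, adjusted p = 9.99e-05), and under that correction CYC1 moved to 0.48. CYCS, which carries electrons to complex IV and triggers apoptosis when released, had 97.7 and 94.97 CPM with the drug and 68.2 and 72.3 CPM untreated (0.45 ± 0.04, edgeR adjusted p = 1.26e-11). It has 40 pseudogenes by name in the tables, which took 0.151% of the counts of gene and pseudogenes together.

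Of the 10 tested nuclear subunits of complex IV, 9 were higher and 1 did not pass, with a median log2 fold change of 0.45. The complex summed to 1219 and 1232 CPM in abemaciclib libraries and 894.4 and 921.3 CPM in untreated ones. COX7B rose furthest, at 98.0 and 102.5 CPM against 55.0 and 58.3 CPM (0.82 ± 0.04, edgeR adjusted p = 1.28e-17). COX5A, which together with COX4I1 joins the core at an early step of assembly, had 66.6 and 69.8 CPM against 38.8 and 40.6 CPM (0.78 ± 0.05). COX5B, the zinc-binding subunit, had 95.9 and 95.4 CPM against 57.8 and 60.2 CPM (0.69 ± 0.04). All libraries of the drug group lay above all untreated ones in these genes. Groups were apart, in either direction, in 87.9% of all genes tested. COX6C followed with 88.1 and 85.3 CPM against 54.7 and 53.4 CPM (0.68 ± 0.04), and its opposite-strand neighbour VPS13B, which fell, had 30.0% as many counts. COX6A1 (0.50 ± 0.03), COX8A (0.41 ± 0.04), COX7C (0.39 ± 0.03) and COX6B1 (0.30 ± 0.04) rose by less. COX8A moved to 0.64 with the GC and length correction. COX4I1, the subunit 4 isoform of most tissues, had 203.5 and 204.4 CPM against 177 and 189.5 CPM (0.15 ± 0.03, edgeR adjusted p = 1.74e-04). COX7A2 did not pass, at 50.1 and 50.2 CPM against 47.9 and 49.8 CPM (0.04 ± 0.05, edgeR adjusted p = 0.505).

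Of 6 tissue-restricted isoforms of complex IV subunits, COX6B2 passed the filter on low counts and the other five did not. COX4I2 had 0 counts in each library beside 4899 and 6925 counts of COX4I1 in abemaciclib libraries and 4772 and 6200 in untreated ones, so no ratio or change can be given. A count of 0 allows up to 0.127 and 0.0903 CPM in the abemaciclib libraries and 0.109 and 0.0898 CPM in the untreated ones (3 counts of the total, counting error only). COX7A1 and COX6A2, the forms known from heart and skeletal muscle, and COX7B2 were at 0 counts in all 4 libraries too. COX8C had 0 and 1 counts with the drug and 0 and 3 untreated. COX6B2, known from testis, had 0 and 1 counts in abemaciclib libraries and, rounded, 67 and 91 in untreated ones. The ratio of its scaled counts, untreated over abemaciclib, was 153-fold (95% exact Clopper-Pearson interval 27.1 to 6092, counting error only), and edgeR called it lower (adjusted p = 2.07e-12). Untreated it stood at 2.48 and 2.78 CPM. COX7A2L, which joins complexes III and IV in supercomplexes, did not pass (0.07 ± 0.04, edgeR adjusted p = 0.0847). NDUFA4, once assigned to complex I and now to complex IV, rose (0.41 ± 0.04), while its paralog NDUFA4L2, known as a target of HIF, was near 1 CPM and did not pass (-0.18 ± 0.34, edgeR adjusted p = 0.633). UQCRHL, a near-identical copy of UQCRH, had 9.55 and 10.04 CPM against 11.3 and 13.2 CPM (-0.33 ± 0.10, edgeR adjusted p = 0.00526), and reads could be split between the copies.

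In complex V 13 of 15 subunits were higher, 1 was lower and 1 did not pass. Their median log2 fold change was 0.49. Its sum was 2360 and 2369 CPM in abemaciclib libraries and 1624 and 1684 CPM in untreated ones. In the F1 head, 4 of 5 subunits were higher. ATP5F1B, the catalytic beta subunit and the member with the most counts, had 533.7 and 538.8 CPM against 343.7 and 363.1 CPM (0.60 ± 0.03, edgeR adjusted p = 2.22e-17). ATP5F1A, the alpha subunit beside it, had 238 and 238 CPM against 139 and 147.5 CPM (0.73 ± 0.03). ATP5F1E, the epsilon subunit of the central stalk, had 327.5 and 332.6 CPM against 178 and 179 CPM (0.89 ± 0.03). These rises were several times wider than the gaps between replicates. The gamma subunit ATP5F1C rose less, with 79.1 and 74.8 CPM against 66.5 and 68.1 CPM (0.19 ± 0.04, edgeR adjusted p = 1.79e-04), and was not called with the GC and length correction (0.06, adjusted p = 0.22). The delta subunit ATP5F1D did not pass, with 59.7 and 64.5 CPM against 56.3 and 62.2 CPM (0.07 ± 0.05, edgeR adjusted p = 0.209), and its groups overlapped. ATP5F1D was called higher without abemaciclib replicate 1 (0.13, adjusted p = 0.0253), without untreated replicate 2 (0.14, adjusted p = 0.0172), with total-count scaling (0.12, adjusted p = 0.0281) and with the GC and length correction (0.53, adjusted p = 3.48e-12), and it was 0.02 without abemaciclib replicate 2 and 0.01 without untreated replicate 1.

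The peripheral stalk, which holds the head still while the rotor turns, had all 4 members higher. ATP5PB, the b subunit, had 202 and 205 CPM in abemaciclib libraries against 99.7 and 102 CPM in untreated ones (1.01 ± 0.03, edgeR adjusted p = 2.20e-22). ATP5PD (0.54 ± 0.04), ATP5PO, the OSCP subunit (0.48 ± 0.04), and ATP5PF, coupling factor 6 (0.42 ± 0.05), also rose. ATP5PB overlaps WDR77 on the opposite strand, which had 28.6% as many counts and rose by 1.38. ATP5PF overlaps JAM2, which had 161.6% as many counts and fell (-0.87), and ATP5PD overlaps KCTD2, with 58.6% as many counts and a log2 fold change of 0.54. The small membrane subunits that join ATP synthases into dimers were higher as well. ATP5MF, subunit f, had 130.4 and 126 CPM against 65.1 and 64.4 CPM (0.99 ± 0.04), ATP5MG, subunit g, rose by 0.60 ± 0.04 and ATP5ME, subunit e, by 0.35 ± 0.05. ATP5ME moved to 0.55 with the GC and length correction. ATP5MF shares its strand with the read-through gene ATP5MF-PTCD1, which had 10.97% as many counts and also rose (0.46), and with PTCD1 (9.5%, 0.51). On the opposite strand CPSF4 had 44.8% as many counts and fell (-0.59). The counts of ATP5MF were not whole in any library, so its level is uncertain.

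The rotor ring is built of many copies of the c subunit, and ATP5MC1, ATP5MC2 and ATP5MC3 encode the same mature protein behind different import sequences. In GENCODE 29 (GRCh38) they lie far from one another, ATP5MC1 at chr17:48892765-48895871 (plus strand), ATP5MC2 at chr12:53632726-53677408 (minus strand) and ATP5MC3 at chr2:175176258-175184607 (minus strand). The genes moved apart. ATP5MC2 had 121 and 127 CPM in abemaciclib libraries and 209 and 214 CPM in untreated ones (-0.77 ± 0.03, edgeR adjusted p = 3.96e-19). ATP5MC3 had 137 and 134 CPM against 97.4 and 95.7 CPM (0.49 ± 0.04, edgeR adjusted p = 9.44e-14). ATP5MC1 had 55.4 and 55.8 CPM against 43.1 and 40.9 CPM (0.41 ± 0.05, edgeR adjusted p = 8.90e-09). The groups did not overlap in any of the 3 genes, nor did they in 87.9% of all genes tested. The fall of ATP5MC2 outweighed the rises of ATP5MC1 and ATP5MC3. Together the 3 genes had 313.7 and 316.9 CPM with the drug, against 349.9 and 350.3 CPM untreated. ATP5MC2 supplied 38.6% and 40.2% of the counts of the 3 genes in abemaciclib libraries, against 59.9% and 61.0% in untreated ones. ATP5MC3 supplied 43.8% and 42.2% with the drug, against 27.8% and 27.3% untreated. Per kilobase of transcript, ATP5MC2 made 37.9% and 39.4% of the 3 in abemaciclib libraries and 59.0% and 60.2% in untreated ones, while ATP5MC3 made 38.1% and 36.7% with the drug and 24.3% and 23.9% untreated. On that scale ATP5MC2 led in both untreated libraries, and neither gene led in both abemaciclib libraries.

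The ratio of ATP5MC2 to ATP5MC3 counts, on the log2 scale, was -0.18 and -0.07 in abemaciclib libraries and 1.10 and 1.16 in untreated ones. The difference was -1.26 (exact two-sided permutation test over the 4 libraries, p = 0.333, the smallest it allows). The ratio of ATP5MC1 to ATP5MC3 was -1.31 and -1.26 with the drug and -1.18 and -1.23 untreated, a difference of -0.08 (exact permutation p = 0.333). With offsets for GC content and length that difference was 0.03, of the opposite sign. Of the last 225 coding bases, which end in the mature protein, 88.9% were the same between ATP5MC1 and ATP5MC2 and 81.3% between ATP5MC3 and each of them. The coding sequences of these genes share no stretch of 31 bases, their counts were whole in all 4 libraries, and pseudogenes by name held at most 0.035% of the counts of gene and pseudogenes together. The annotated gene that overlaps ATP5MC2, AC073594.1, had 0 counts.

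**Figure D2:**
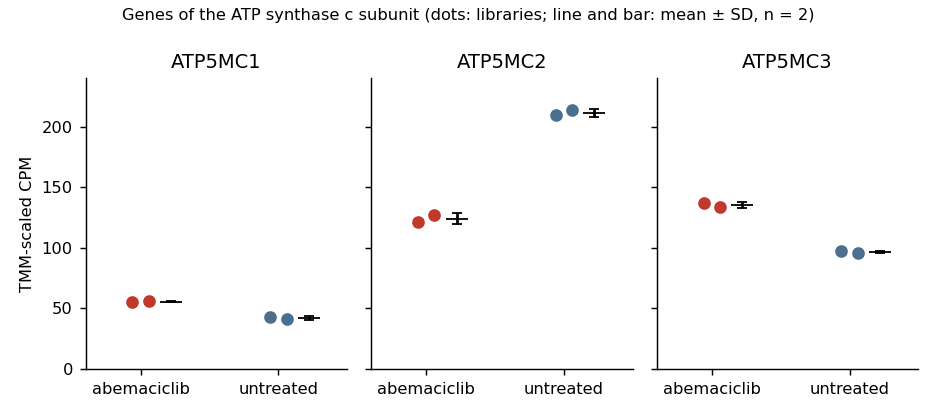
CPM (TMM-scaled, axis from 0) of the 3 genes for the ATP synthase c subunit in each library, with mean and SD (n = 2 per group). ATP5MC2 lies lower in the abemaciclib libraries (121 and 127 CPM) than in the untreated ones (209 and 214 CPM), while ATP5MC1 and ATP5MC3 lie higher.

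To compare levels between genes, CPM were divided by the median length of each gene's basic coding transcripts in GENCODE 29, so each level rests on that length. On this scale of CPM per kilobase, ATP5MC2 ranked 1 of the members in untreated libraries (284) and 17 in abemaciclib libraries (167). ATP5MF ranked 1 with the drug (397) and 6 untreated (200.5), over an annotated length of 323 bases and with the uncertain level described above. ATP5PB ranked 3 with the drug (300.4) and 13 untreated (149), UQCRQ 5 (283) and 16 (109.6), and UQCR11 14 (190.2) and 28 (75.8). COX6A1, whose counts were also not whole in any library, ranked 2 in both groups, at 352.7 with the drug and 249.0 untreated. The median over subunits was highest in complex IV in both groups, at 201 with the drug and 139.8 untreated. Complex V had 161 against 95.1, complex III 181 against 75.8 and complex II 60.1 against 52.4. UQCRFS1 was the lowest of the detected members, at 23.0 CPM per kilobase with the drug and 15.2 untreated, over an annotated length of 3475 bases. ATP5F1E ranked 16 with the drug (175.7) and 19 untreated (95.1), over an annotated length of 1878 bases. A shorter length would raise ATP5F1E and could change the ranks of other members.

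**Figure D3:**
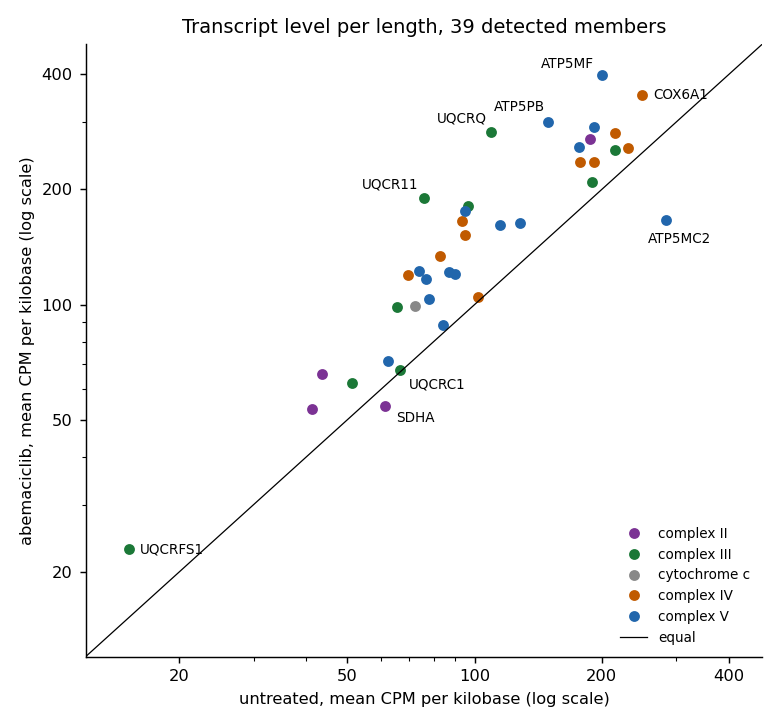
Mean level of the 39 detected members in CPM per kilobase of transcript, untreated on the horizontal and abemaciclib on the vertical axis (both log scale), coloured by complex, with the line of equal levels. ATP5MC2 (167 with the drug, 284 untreated) and SDHA (54.3 and 61.4) lie below the line, and UQCRQ and UQCR11 are among those farthest above it.

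The mitochondrially encoded partners of complexes III, IV and V were higher too, and their summed level differed more between groups than that of the nuclear members. MT-CYB, cytochrome b of complex III, had 7985 and 7876 CPM in abemaciclib libraries and 1796 and 1994 CPM in untreated ones (log2 fold change 2.07 ± 0.04). The complex IV core genes MT-CO1 (1.02 ± 0.03), MT-CO2 (1.11 ± 0.04) and MT-CO3 (1.04 ± 0.05) and the complex V genes MT-ATP6 (1.48 ± 0.07) and MT-ATP8 (1.46 ± 0.09) were also higher, each of the 6 with an edgeR adjusted p of 5.19e-04 or less. For complex III, mitochondrial over nuclear CPM was 7.15 and 6.97 with the drug, against 2.39 and 2.59 untreated. For complex IV this ratio was 32.2 and 31.5 against 20.2 and 21.5, and for complex V 2.97 and 2.92 against 1.43 and 1.58. The ratio was higher in both abemaciclib libraries in each complex, and the exact permutation p was 0.333 in each, the smallest that 2 libraries against 2 allow.

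**Figure D4:**
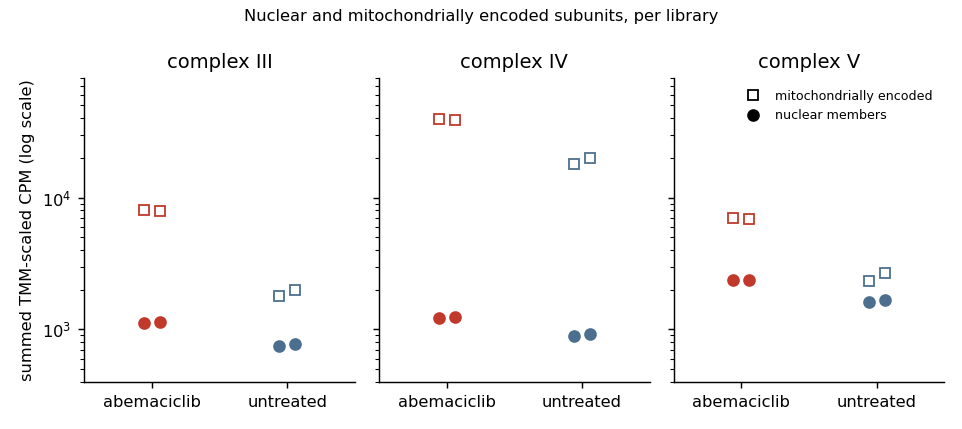
Summed CPM (log scale) of the nuclear members (filled dots) and of the mitochondrially encoded subunits (open squares) of complexes III, IV and V in each library, abemaciclib left and untreated right. Both kinds are higher with the drug, and the squares are farther apart between groups than the dots (complex III: 4.19-fold against 1.48-fold).

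Of 15 nuclear subunits, isoforms and close partners outside the 40 genes, 10 passed the filter. Of these 6 were higher, 2 were lower and 2 did not pass. HIGD1A, a small inner-membrane protein tied to complex IV (0.83 ± 0.05), its relative HIGD2A (0.54 ± 0.04), the ATP synthase inhibitor ATP5IF1 (0.59 ± 0.04) and the ATP synthase membrane subunit ATP5MK (0.54 ± 0.05) rose. Factors that assemble the complexes were mixed: of 43, 24 were higher, 7 were lower and 12 did not pass, and their median log2 fold change was 0.26. The counts in this paragraph are to be read beside the shares of all genes tested, 38.0% called higher and 39.3% lower. All 5 factors for complex V were higher, among them ATPAF2, a chaperone of the F1 alpha subunit (0.66 ± 0.10), and TMEM70, which helps build the c-ring (0.39 ± 0.07). Of 26 for complex IV, 14 were higher, 2 were lower and 10 did not pass. COA7 (1.38 ± 0.10), COX14 (1.31 ± 0.08), the heme A synthase COX15 (1.04 ± 0.07) and LRPPRC, which stabilizes mitochondrial mRNAs (1.08 ± 0.04), rose by the most. LRPPRC had 98.4 and 105 CPM with the drug against 47.4 and 49.0 CPM untreated. Of 8 for complex III, 4 were higher, among them TTC19 (0.58 ± 0.05) and UQCC3 (0.28 ± 0.09), 3 were lower, among them BCS1L, which inserts the Rieske protein (-0.29 ± 0.07), and UQCC5 (-0.20 ± 0.08), and 1 did not pass. For complex II, SDHAF2, which helps attach the flavin to SDHA, rose (0.81 ± 0.09), SDHAF1 fell (-0.75 ± 0.10), and of the list of 4, 1 was higher, 2 were lower and 1 did not pass.

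Genes that shape the cristae, the folds that carry these complexes, were higher in 8 of 10 cases and 2 did not pass, and their median log2 fold change was 0.59. MICOS10 (1.06 ± 0.05), CHCHD3 (1.02 ± 0.04), DNAJC11 (0.98 ± 0.05) and SAMM50 (0.78 ± 0.06) rose furthest. Transcription factors and coactivators known for respiratory genes did not share this direction: of 16, 4 were higher, 9 were lower and 3 did not pass, and the median was -0.25. Both counts are to be read beside those of all genes tested, with 38.0% called higher, 39.3% lower and a median of -0.01. TFAM, which packs mitochondrial DNA and helps start its transcription, had 21.4 and 23.2 CPM in abemaciclib libraries against 14.5 and 13.3 CPM in untreated ones (0.69 ± 0.08). The coactivator PPRC1 rose too (0.63 ± 0.04). The mitochondrial RNA polymerase POLRMT fell (-0.68 ± 0.04), with 69.4 and 72.7 CPM against 112 and 116 CPM. TFB1M, which methylates mitochondrial ribosomal RNA, fell to 7.69 and 9.21 CPM with the drug, against 22.3 and 23.2 CPM untreated (-1.42 ± 0.09). NRF1 itself, chosen for its motif above, had 10.3 and 10.8 CPM against 13.8 and 13.1 CPM (-0.34 ± 0.10, edgeR adjusted p = 0.00201). Of the other factors named with the motifs, MYC was lower (-0.53, edgeR adjusted p = 1.34e-13) and GABPA did not pass (0.22 ± 0.12, edgeR adjusted p = 0.0982). The coactivators PPARGC1B and PPARGC1A are named here after their values were seen. PPARGC1B had 10.3 and 10.1 CPM against 1.70 and 1.65 CPM (2.60 ± 0.15). PPARGC1A did not pass (-0.29 ± 0.14, edgeR adjusted p = 0.0599).

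**Figure D5:**
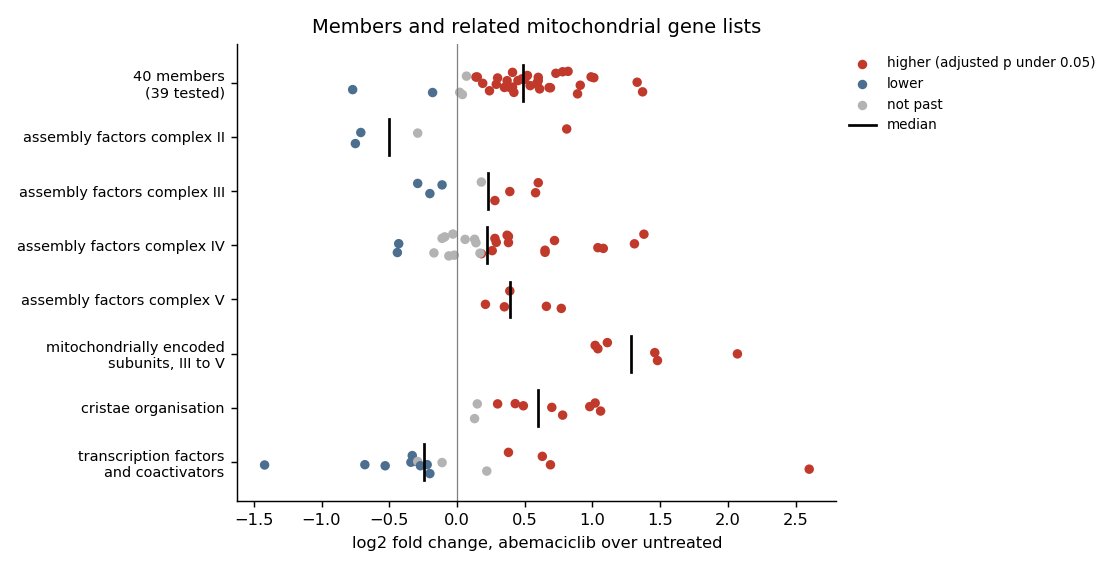
Log2 fold change (abemaciclib over untreated) of each tested gene of the 40 members and of 7 related lists, coloured by call, with the median as a line. The members (median 0.49) and the mitochondrially encoded subunits (1.28) lie mostly right of 0, and the transcription factors and coactivators (-0.25) mostly left.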

How the data were processed

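Poly-A RNA of 4 libraries was measured, with TruSeq Stranded libraries per the labels' protocols. The deposited tables hold expected counts per gene, estimates that need not be whole and are not scaled for depth or length, per the file headers. STAR (2.7.2b), RSEM (1.3.1) and the build GRCh38 appear, without roles, in what the submitters noted on processing. The annotation and strand setting of the counting are not given in the sources used here. Of the members, 24 overlap an annotated gene (11 on the same strand, 18 on the opposite), and 28 have pseudogenes by name. The counts of 14 members were not whole in at least 1 library.

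Expected counts were rounded and tested with edgeR 4.0.16 (R 4.3.3, limma 3.58.1): filterByExpr, TMM, robust quasi-likelihood F test on group alone, two-sided, Benjamini-Hochberg over 17207 genes. The standard error is the log2 fold change over the square root of F. Ratios used counts plus 0.5. Alternatives used DESeq2 1.42.0, other scalings, no filter, each library left out, a replicate block, pseudogenes summed in, and loess offsets for GC content and length (GENCODE 29, 96.4% of identifiers matched). Replicates differed by more than sampling noise (chi-square per degree of freedom 1.95 for abemaciclib, 3.56 for untreated). Members, lists and the rule for named genes were chosen with earlier results of these data known. The rule named all members, other isoforms, and up to 4 called genes per list with a mean of at least 10 CPM.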

Additional observations from a re-analysis of the deposited data

How the results depend on the processing

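The number of members called higher was 34 to 36 over the 12 alternatives, and 2 were lower in each. With total counts only, the median log2 fold changes moved to 0.50 (complex II), 0.65 (III), 0.51 (IV) and 0.54 (V), and with the GC and length correction to 0.41, 0.48, 0.62 and 0.53, which changes the order of the complexes. The ratio of ATP5MC1 to ATP5MC3 turned to 0.03 under that correction. The cause was not tested. Leaving out 1 library gave 34 to 35 members higher, and medians of 0.43 to 0.48 (II), 0.54 to 0.60 (III), 0.45 to 0.49 (IV) and 0.47 to 0.52 (V). A left-out library leaves its group with 1 sample, which is assumed to vary like the other group. The replicate numbers are not said to pair the libraries (correlation of deviations -0.00141), and the replicate block gave 34 members higher and 2 lower, with 6451 genes higher and 6657 lower in all. DESeq2 called 5380 genes higher and 5351 lower. The ratio of COX4I2 to COX4I1 was not computed, as COX4I2 had 0 counts. Depth limits the values of isoforms near 0 counts, and expected counts of members with pseudogenes or overlapping genes carry an uncertainty that replicates do not show.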

Other observations

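With each gene's level divided by a single annotated length, complex IV was the exception in how even its subunits were. The levels of its 10 detected nuclear subunits were somewhat more even after the drug. The SD of log2 CPM per kilobase over these subunits was 0.59 and 0.59 in the abemaciclib libraries and 0.70 and 0.69 in the untreated ones. The SD was larger with the drug in complex II (1.12 and 1.13 against 1.01 and 1.03), complex III (1.19 and 1.20 against 1.14 and 1.12) and complex V (0.71 and 0.70 against 0.65 and 0.65). The values for complex II depend strongly on the 460 bases taken for SDHC. On that length SDHC stood at 270.3 CPM per kilobase with the drug and 187.9 untreated. Means of the complex's other subunits lay between 41.2 and 65.8. Other lengths could change these comparisons, which was not tested. Over the 39 tested members, the log2 fold change had a Spearman rho of -0.07 with transcript length, -0.18 with GC content and -0.08 with the untreated level per kilobase. These members share the same 4 libraries, so the values are descriptions.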
